A study of Mus with 6 samples.

Results

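The mitochondrial ribosomal protein genes were followed in RNA-seq of the basolateral amygdala, a forebrain region that takes in sensory information and is needed for fear learning. They were taken as the protein-coding genes of the deposited table whose symbol begins with Mrpl or Mrps followed by a number, which gave 78 of 54532 genes. The mutant animals were Cntnap4 knockout mice (labelled CNTNAP4-KO, called KO, 3 libraries) and the controls were wild-type mice (WT, 3 libraries), all labelled female. Cntnap4 encodes a transmembrane protein of the neurexin superfamily. Strain, age and the knockout allele are not described in the labels. The labels number the libraries 1 to 3 within each genotype and do not state that each came from a separate animal, so a p-value here measures the spread between these libraries, which may be technical.

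Mitochondria carry their own ribosome, which makes the few proteins encoded by mitochondrial DNA, all of them core subunits of the respiratory chain and ATP synthase. Its 2 rRNAs, 12S (gene mt-Rnr1) and 16S (mt-Rnr2), come from mitochondrial DNA, while its proteins are encoded in the nucleus, made in the cytosol and imported. Genes named Mrpl mostly encode proteins of the large subunit, which forms the peptide bonds, and genes named Mrps mostly proteins of the small subunit, which reads the mRNA. Some have counterparts in the bacterial ribosome and others are found in mitochondria alone. Neurons draw on this system for the ATP that synaptic transmission consumes.

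Values are FPKM, fragments per kilobase of gene scaled to library size, with the library scaling of the authors. The libraries held 15933029 to 17789798 reads, recovered from FPKM and gene length, of which 28813 to 30941 in KO and 30687 to 37770 in WT fell on the members. The targeted gene, Cntnap4, was at 1.08, 1.19 and 1.28 FPKM in KO and at 3.53, 3.90 and 2.15 FPKM in WT, lower in every KO library (log2 fold change -0.92, limma adjusted p = 0.302). Library WT3 stood apart in its striatal neuron markers, which summed to 860 FPKM there against 59.9 to 362 in the other libraries. The 362 was in KO3. Mitochondrial DNA transcripts took 8.34% of the reads of WT3 against 4.10% to 6.31% in the others. WT1 stood apart in myelin markers, at 273 FPKM against 536 to 806 in the others. Its meningeal fibroblast markers summed to 65.1 FPKM against 12.3 to 32.8. Hypothalamic peptides summed to 33.4 FPKM in WT1 and 24.6 in WT2, against 1.52 to 3.43 in the others. Of the markers listed for projection neurons of this tissue, Slc17a7 was at 279 ± 81.7 FPKM in KO and 257 ± 43.2 in WT (SD, n = 3 each). Rspo2 was low, at 3.14 ± 0.89 in KO and 2.95 ± 0.86 in WT. Of the 10 projection neuron markers, 2 were higher in KO without overlap, Neurod6 at 30.0 ± 3.67 FPKM in KO and 14.1 ± 6.13 in WT and Tbr1 at 46.1 ± 6.43 in KO and 28.5 ± 7.93 in WT. Another 2 were lower without overlap, Lmo3 at 20.8 ± 4.28 FPKM in KO and 41.0 ± 18.1 in WT and Cdh13 at 6.43 ± 1.14 in KO and 8.60 ± 0.88 in WT.

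Nearly all members were expressed, at moderate and steady levels. Of the 78, 77 had a mean of at least 1 FPKM over the 6 libraries and were tested, and the 78th, Mrpl53, was listed at 0 in all 6. The tested members ranged over 27.1-fold in mean level, with a median of 9.97 FPKM against 6.46 over all 13087 genes tested. Of these, 7 lay above 20 FPKM and 18 below 5. The lowest count behind a tested member in any library was 106 reads, and the highest mean of a member over the 6 libraries was 1116 reads. Within a genotype the members' coefficient of variation had a median of 8.32% in KO and 8.29% in WT, against 11.1% in KO and 14.4% in WT over all genes tested. The order of the members was nearly the same in every library, with a Spearman correlation across the 77 genes of 0.938 to 0.971 between any 2 libraries, as a description of genes that share each library.

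Mrpl41, a mitochondria-specific protein of the large subunit, had the highest level. It was at 39.5, 37.4 and 36.5 FPKM in KO and at 47.7, 43.6 and 40.8 FPKM in WT, with all KO values below all WT values. Mrpl43, another mitochondria-specific large-subunit protein, was at 28.3 ± 0.29 FPKM in KO and 34.0 ± 5.68 in WT, where WT1 alone reached 40.3. Mrps12, the counterpart of a bacterial protein at the decoding centre, was at 24.6 ± 1.42 in KO and 28.6 ± 0.64 in WT. Mrpl34 was at 25.9 ± 2.24 in KO and 25.9 ± 3.13 in WT, a difference well inside the spread. At the low end were Mrpl33 (1.55 ± 0.13 in KO, 1.47 ± 0.24 in WT), Mrps35 (2.05 ± 0.22 in KO, 1.98 ± 0.23 in WT), Mrps10 (2.23 ± 0.51 in KO, 2.52 ± 0.23 in WT) and Mrps30 (2.64 ± 0.27 in KO, 2.37 ± 0.27 in WT). Mrps30 carries a small-subunit name, but its protein sits in the large subunit. None of these 4 low members was separated between the genotypes.

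Levels ran against gene length. Across the 77 members mean FPKM and the length given in the table had a Spearman correlation of -0.76, against -0.14 across the 11815 protein-coding genes tested. The recovered reads per member, which are not divided by length, ran the other way, with a correlation of 0.33 among members and 0.37 among protein-coding genes. Mrps35, Mrps10 and Mrpl33 had table lengths of 8631, 8079 and 7326 bases, and Mrpl41 and Mrpl34 had 888 and 607. These are correlations across genes, which are not independent, and FPKM contains the length by construction.

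Summed over all members, mitochondrial ribosomal protein transcripts were lower in KO, with no overlap between the genotypes. The sums were 784, 800 and 808 FPKM in KO1 to KO3 and 938, 876 and 857 FPKM in WT1 to WT3, a ratio of the means of 0.895. Large-subunit names summed to 544 ± 7.07 FPKM in KO and 609 ± 29.1 in WT, and small-subunit names to 253 ± 5.27 in KO and 281 ± 15.2 in WT. The ratios of KO to WT were 0.893 and 0.901, and the quotient of the large-subunit over the small-subunit sum was 2.15 ± 0.02 in KO and 2.17 ± 0.06 in WT, with overlapping values. With FPKM rescaled to 1 common sum per library the member sums overlapped, at 790, 843 and 811 in KO and 953, 893 and 781 in WT. With the common sum taken over genes outside mitochondrial DNA they did not overlap, at 756, 816 and 833 in KO and 941, 871 and 849 in WT. In these bulk libraries fewer cells of a type and less RNA per cell cannot be told apart.

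**Figure D1:**
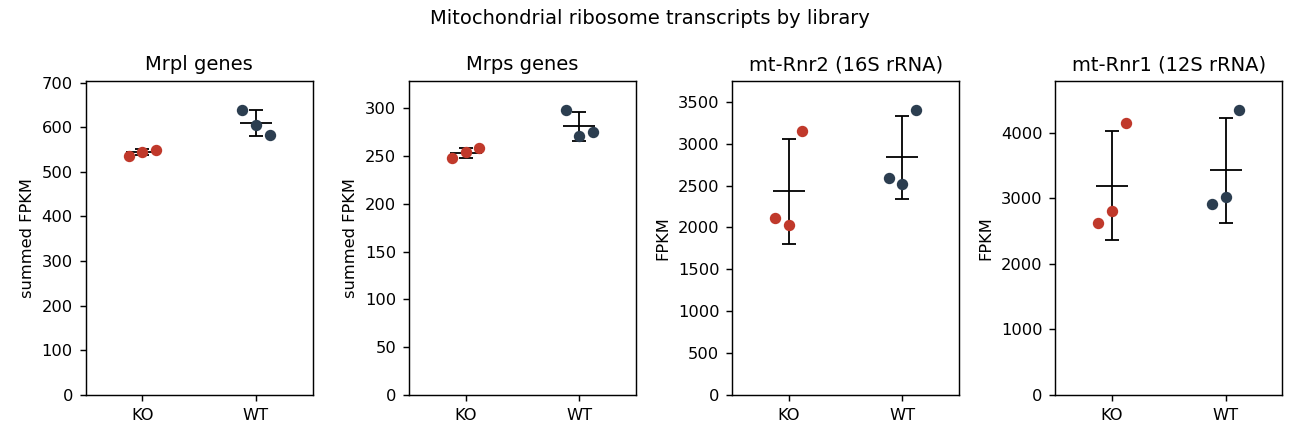
Summed FPKM of the Mrpl and of the Mrps genes, and FPKM of the 2 rRNAs of the mitochondrial ribosome, for each library; points are libraries 1 to 3 from left to right, and bars are the mean ± SD of 3. The summed protein genes do not overlap between KO and WT (Mrpl 536 to 550 FPKM in KO and 582 to 640 in WT), while both rRNAs overlap and are highest in the libraries numbered 3.

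The FPKM of the rRNA partners of these proteins did not separate the genotypes. The libraries were made with an mRNA kit, so these values need not follow the amount of rRNA in the ribosome. The 16S rRNA gene mt-Rnr2 was at 2112, 2026 and 3153 FPKM in KO and at 2588, 2513 and 3407 FPKM in WT. The 12S rRNA gene mt-Rnr1 was at 2615, 2810 and 4141 FPKM in KO and at 2914.5, 3021 and 4351 FPKM in WT. Both were highest in KO3 within KO and in WT3 within WT. Each was lower in KO than in the WT library of the same number, in 3 of 3 numbers, but the labels do not state that the numbers are pairs.

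Gene by gene, no member passed the threshold. Tested with limma on log2(FPKM + 1) and with Benjamini-Hochberg adjustment across the 13087 genes tested, 0 of 77 members had an adjusted p under 0.05, the smallest being 0.302. Over all genes 1 passed, 0.00764% of those tested, and with the replicate number as a block 0 passed. At an unadjusted p under 0.05, 11 members were lower in KO and 1 was higher, beside 7.25% and 7.05% of all genes (949 lower and 923 higher). With FPKM rescaled to 1 common sum per library these were 580 lower and 1224 higher over all genes, and 5 lower and 1 higher among members. Voom on the recovered reads also called 0 members, with 9 lower and 0 higher at an unadjusted p under 0.05 (6.98% and 7.84% of all genes). The count of 11 was 19 with array weights, which give each library a weight by its spread (11.7% of all genes lower in that fit), and 7 with the length trend removed. It was 7 without KO2 (3.81% of all genes), 6 without KO3 (6.09%), 6 without WT2 (6.85%) and 7 with both libraries numbered 3 left out (7.98%). The 1 higher member was lost in each of the 6 fits that left out a library. The share of all genes is not matched for length, and counts by length class are given below.

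The members leaned to lower values in KO. Of 77, 58 had a negative log2 fold change (48.7% of all genes did), and their median was -0.11, against 0.01 over all genes tested. The KO values all lay below the WT values for 19 members and all above for 1, while 10.1% of all genes were lower and 11.9% higher in that way. The 19 had ratios of KO to WT between 0.636 and 0.860. With the common sum per library 6 members were lower without overlap and 4 higher, beside 6.07% and 14.6% of all genes under that scaling. Without KO3 the count of 19 was 31 (16.3% of all genes) and without WT3 it was 30 (19.1% of all genes), with fewer libraries left to overlap. The median of the members was negative in all 19 alternatives tried, from -0.15 to -0.057, and -0.057 when the trend with gene length was removed. Compared by library number, the median difference of KO from WT over the members was -0.22 for libraries 1, -0.09 for libraries 2 and -0.03 for libraries 3, where 65, 54 and 42 of 77 were lower in KO. Over all genes tested these medians were 0.02, -0.01 and 0.01. Whether the library numbers are pairs is not stated in the labels.

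**Figure D2:**
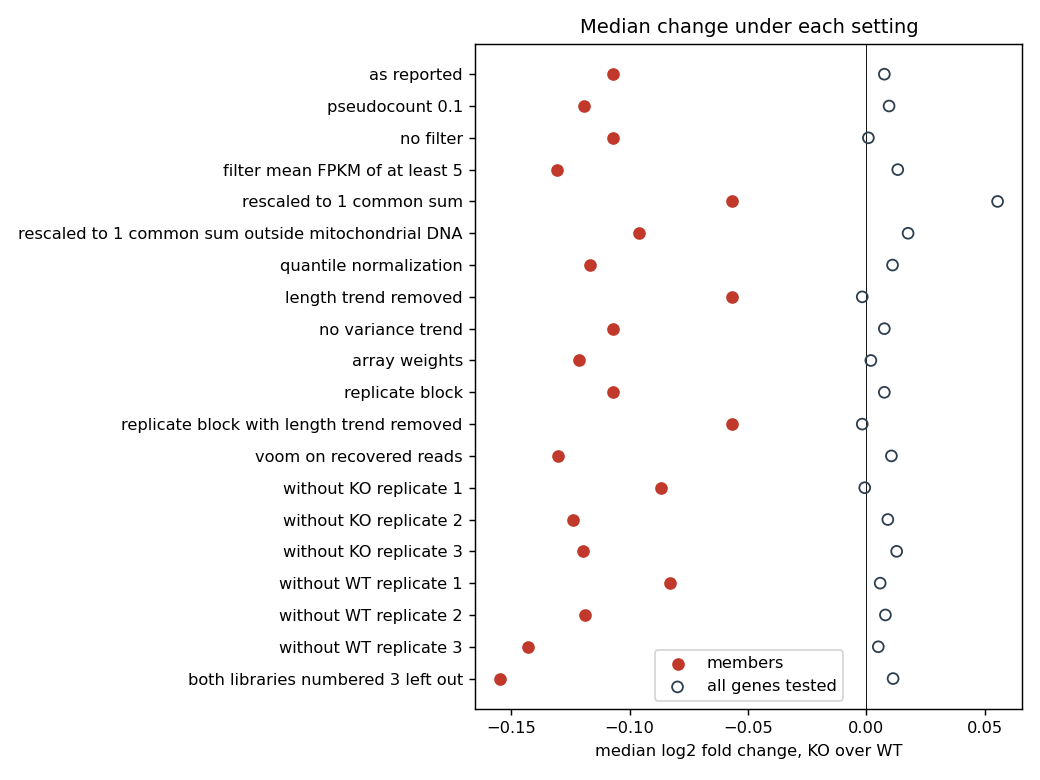
Median log2 fold change of KO over WT for the members (filled) and for all genes tested (open), as reported and under each of the 19 alternatives listed down the page. The members' median lies between -0.15 and -0.057 in the alternatives, left of the median of all genes in each.

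**Figure D3:**
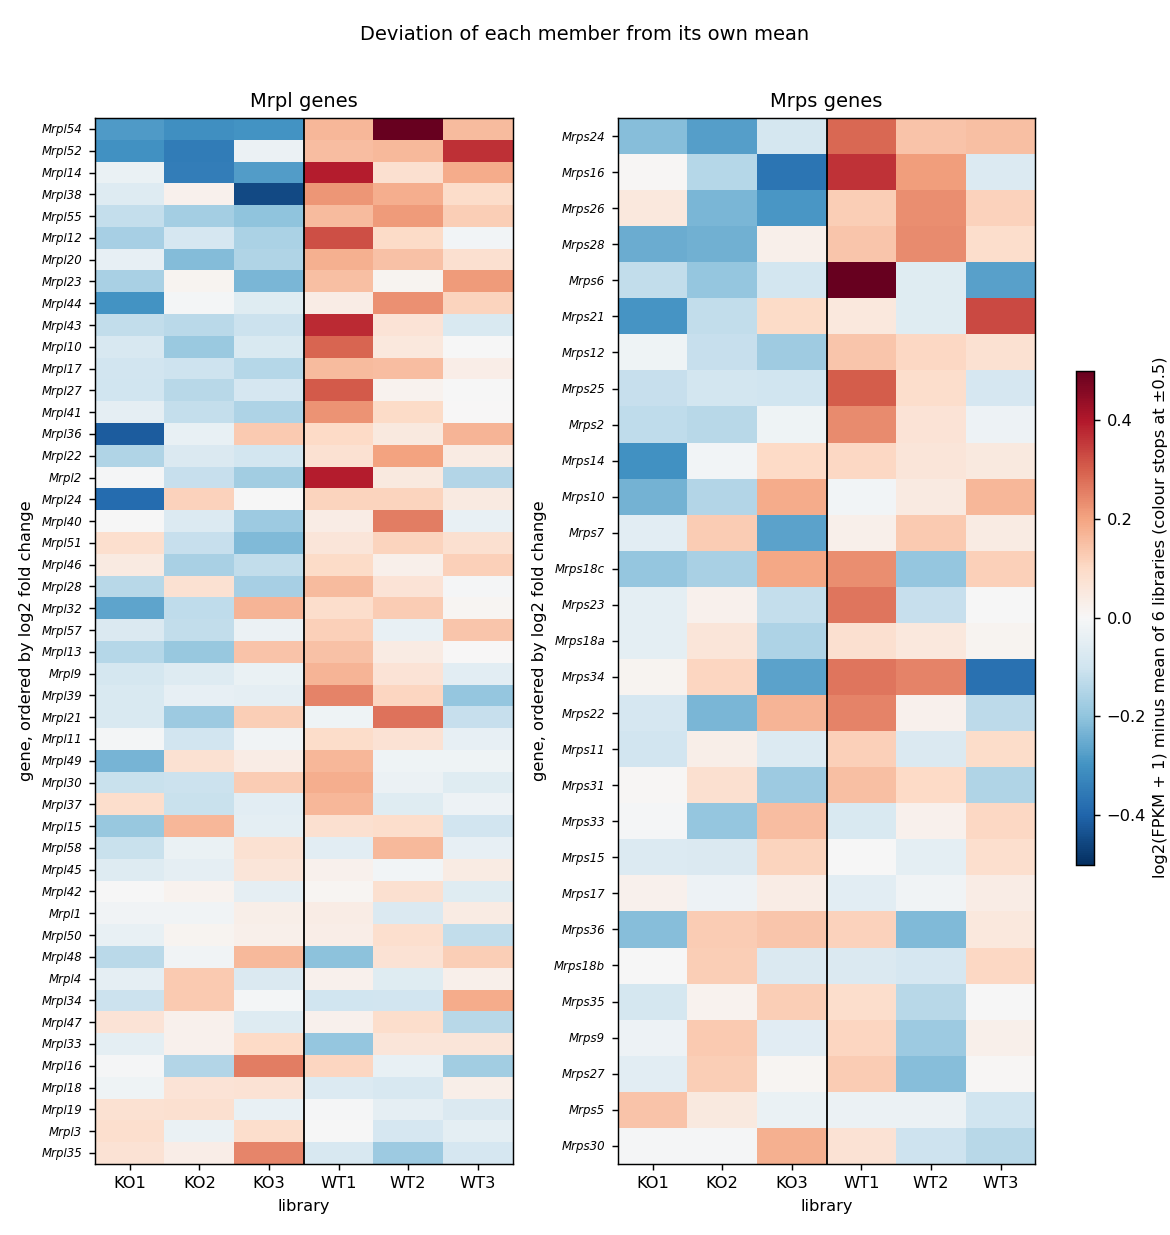
Deviation of log2(FPKM + 1) from the gene's mean over the 6 libraries for the 48 Mrpl and 29 Mrps genes tested, one row per gene ordered by log2 fold change, KO libraries on the left. Blue (below the mean) prevails in KO1 to KO3 in the upper rows, and WT1 holds the highest value of 33 of the 77 genes.

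Before the trend with length was removed, the lean was spread over both subunits and over old and new parts of the ribosome. Of 48 tested genes named Mrpl, 37 were negative with a median log2 fold change of -0.14, and of 29 named Mrps, 21 were negative with a median of -0.10. Large-subunit proteins with a bacterial counterpart had 21 of 30 negative (median -0.12) and mitochondria-specific ones 17 of 20 (median -0.13). Small-subunit proteins with a bacterial counterpart had 13 of 16 negative (median -0.14) and mitochondria-specific ones 7 of 10 (median -0.08). The 1 remaining member, Mrps36, is named for the small subunit, but its protein is known as a subunit of the 2-oxoglutarate dehydrogenase complex of the citric acid cycle. It was at 8.41, 10.9 and 11.0 FPKM in KO and at 10.8, 8.37 and 10.3 FPKM in WT, so that the genotypes overlapped fully. With the trend with length removed, 35 of 48 Mrpl genes were negative (median -0.059) and 18 of 29 Mrps genes (median -0.043). Large-subunit proteins then had 21 of 30 negative with a bacterial counterpart and 15 of 20 mitochondria-specific. Small-subunit proteins had 12 of 16 (median -0.075) with a bacterial counterpart and 5 of 10 (median -0.013) mitochondria-specific. Differences between these classes were not tested.

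Among large-subunit genes, Mrpl54, a mitochondria-specific protein, had the smallest p of all members. It was at 9.74, 9.58 and 9.64 FPKM in KO and at 13.7, 18.3 and 13.6 FPKM in WT. The 3 KO libraries were close together and far below the WT libraries, of which WT2 was highest. The log2 fold change was -0.59 (SE 0.13), the ratio 0.636 and the limma adjusted p 0.302, on a mean of 133 reads in KO and 214 in WT. The gene (ENSMUSG00000034932) lies on chromosome 10 from 81264713 to 81266934 on the minus strand (GRCm38).

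Mrpl52, also mitochondria-specific, was at 6.26, 6.03 and 7.77 FPKM in KO and at 8.97, 9.002 and 10.5 FPKM in WT. Its highest values in both genotypes were in the libraries numbered 3, and the genotypes did not overlap (log2 fold change -0.45, SE 0.12, limma adjusted p = 0.302; chromosome 14 from 54426909 to 54429756). Mrpl14, whose bacterial counterpart lies at the contact of the subunits, was at 10.2, 8.02 and 8.44 FPKM in KO and at 14.0, 11.1 and 12.05 FPKM in WT (log2 fold change -0.44, SE 0.13, limma adjusted p = 0.303). KO1 and WT2 were the nearest libraries. Mrpl55, which has a bacterial counterpart, was at 16.01, 15.4 and 15.1 FPKM in KO and at 19.6, 20.4 and 19.1 FPKM in WT, tightly grouped on both sides (log2 fold change -0.33, SE 0.09, limma adjusted p = 0.302; chromosome 11 from 59202486 to 59206134).

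A further 4 large-subunit genes were separated with smaller differences or wider spread. Mrpl20, whose bacterial counterpart takes part in early assembly of the large subunit, was at 14.1 ± 0.95 FPKM in KO and 17.2 ± 0.62 in WT (ratio 0.820). Mrpl12, of the stalk that receives elongation factors, was at 14.3, 15.2 and 14.4 FPKM in KO and at 20.4, 17.3 and 16.01 FPKM in WT. The WT libraries spread widely there, and its log2 fold change of -0.27 lay between -0.34 and -0.18 when any one library was left out. Mrpl17, whose bacterial counterpart lies near the exit of the peptide tunnel, was at 3.46 ± 0.08 in KO and 4.23 ± 0.26 in WT. Mrpl38, of the central protuberance, was at 11.0 ± 2.00 in KO and 13.9 ± 0.68 in WT, with KO3 alone at 8.71.

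Mrpl35 was the 1 member higher in every KO library. This large-subunit protein with a bacterial counterpart was at 7.46, 7.23 and 8.53 FPKM in KO and at 6.61, 6.10 and 6.59 FPKM in WT, a ratio of 1.20. The groups were apart and KO3 was the highest (log2 fold change 0.23, SE 0.10, limma adjusted p = 0.349). The gene (ENSMUSG00000052962) lies on chromosome 6 from 71812997 to 71826969. The next largest positive values belonged to Mrps30 (0.11), Mrps5 (0.11) and Mrpl3 (0.09). Mrps5, whose bacterial counterpart bears on decoding accuracy, was at 6.23 ± 0.44 in KO and 5.71 ± 0.18 in WT, and Mrpl3 was at 10.2 ± 0.53 in KO and 9.53 ± 0.30 in WT. All 3 overlapped between the genotypes.

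There were 3 small-subunit genes among the 12 members of smallest p without overlap. Mrps24, the counterpart of a bacterial protein at the mRNA entry channel, was at 14.0, 13.4 and 15.4 FPKM in KO and at 20.3, 18.3 and 18.3 FPKM in WT. The nearest libraries were KO3 and WT2, with a log2 fold change of -0.39 (SE 0.10, adjusted p = 0.302 in limma; chromosome 11 from 5703983 to 5715680). Mrps28, counterpart of another bacterial small-subunit protein, was at 9.02, 9.06 and 11.1 FPKM in KO and at 12.1, 13.0 and 11.6 FPKM in WT. KO3 and WT3 nearly met (log2 fold change -0.31, SE 0.11). Mrps26, a mitochondria-specific protein, was at 10.3, 8.31 and 7.92 FPKM in KO and at 10.9, 11.8 and 10.8 FPKM in WT, where KO1 lay just below WT3 (log2 fold change -0.31, SE 0.12).

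**Figure D4:**
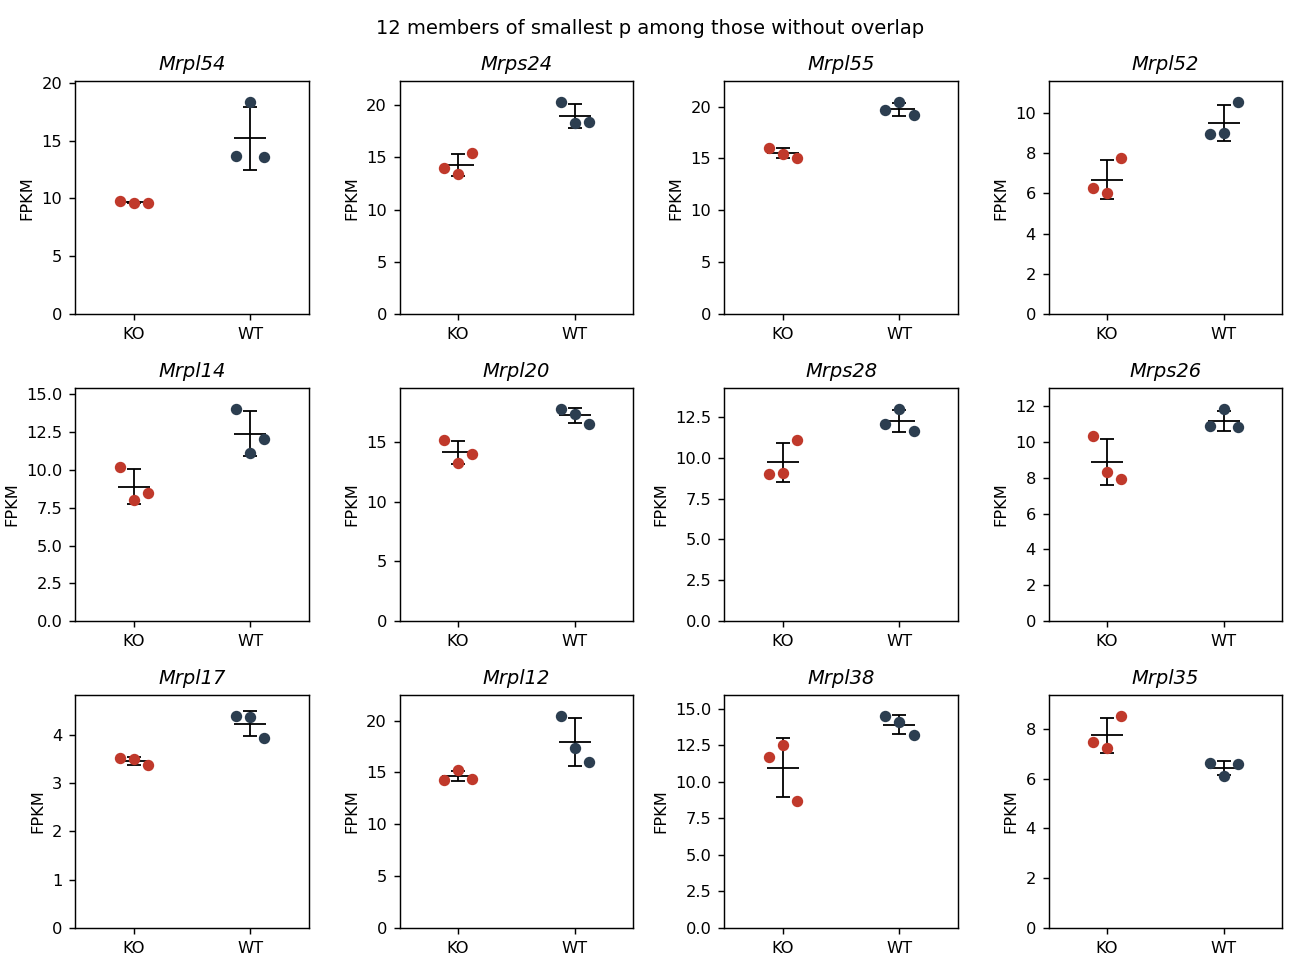
FPKM of the 12 members of smallest limma p whose KO and WT values do not overlap, ordered by p; points are libraries 1 to 3 from left to right and bars are mean ± SD of 3. In 11 panels the values show KO below WT, from Mrpl54 (ratio 0.636) on, and Mrpl35 shows KO above WT (ratio 1.20).

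The Mrps18 paralogs, 3 relatives of 1 bacterial protein that take different places in the ribosome, were not separated between the genotypes. Mrps18a, whose protein is in the large subunit, was at 8.70 ± 0.72 FPKM in KO and 9.37 ± 0.24 in WT. Mrps18b was at 3.47 ± 0.31 in KO and 3.37 ± 0.32 in WT. Mrps18c was at 7.71 ± 1.34 in KO and 8.38 ± 1.39 in WT. All 3 overlapped between the genotypes, and their limma adjusted p was 0.635, 0.897 and 0.755. Mrps18b had the lowest FPKM of the paralogs in each of the 6 libraries.

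The size of the difference followed gene length, among the members as among all genes. Log2 fold change and length had a Spearman correlation of 0.46 across the 77 members and 0.40 across 11815 protein-coding genes. In length classes chosen after the values were seen, the 21 members under 1500 bases had a median of -0.21, and so did the 801 protein-coding genes of that class. The 27 members from 1500 to 3000 bases had a median of -0.11, beside -0.10 for 2490 protein-coding genes. The 29 members of 3000 bases or more had a median of -0.05, beside 0.05 for 8524 protein-coding genes. The members are short, with a median length of 2255 bases against 4484 for all protein-coding genes tested. Negative members numbered 17 of 21 (81.0%) under 1500 bases, beside 77.9% of protein-coding genes of that class. They were 23 of 27 (85.2%) from 1500 to 3000 bases, beside 68.7%, and 18 of 29 (62.1%) at 3000 bases or more, beside 40.5%. Members lower at an unadjusted limma p under 0.05 were 6 of 21, 3 of 27 and 2 of 29 in these classes. Protein-coding genes lower in that way were 198 of 801, 331 of 2490 and 343 of 8524. Lower without overlap were 11, 5 and 3 members, beside 223, 433 and 579 protein-coding genes.

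With the trend with length removed from each library, the members' median moved to -0.057 and 53 of 77 were negative, beside 50.3% of all genes. At an unadjusted p under 0.05, 7 members were then lower and 2 higher, beside 5.91% and 5.75% of all genes. Mrpl54 remained the lowest at -0.46, followed by Mrpl17 at -0.32, Mrpl52 at -0.31, Mrps26 at -0.31 and Mrpl14 at -0.30. Mrpl35 was at 0.23. The long members Mrpl17 (7605 bases) and Mrps26 (4358 bases) were thus as low or lower after this step. Mrpl55 was at -0.19 and Mrps12 at -0.07. What sets the trend with length was not tested.

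**Figure D5:**
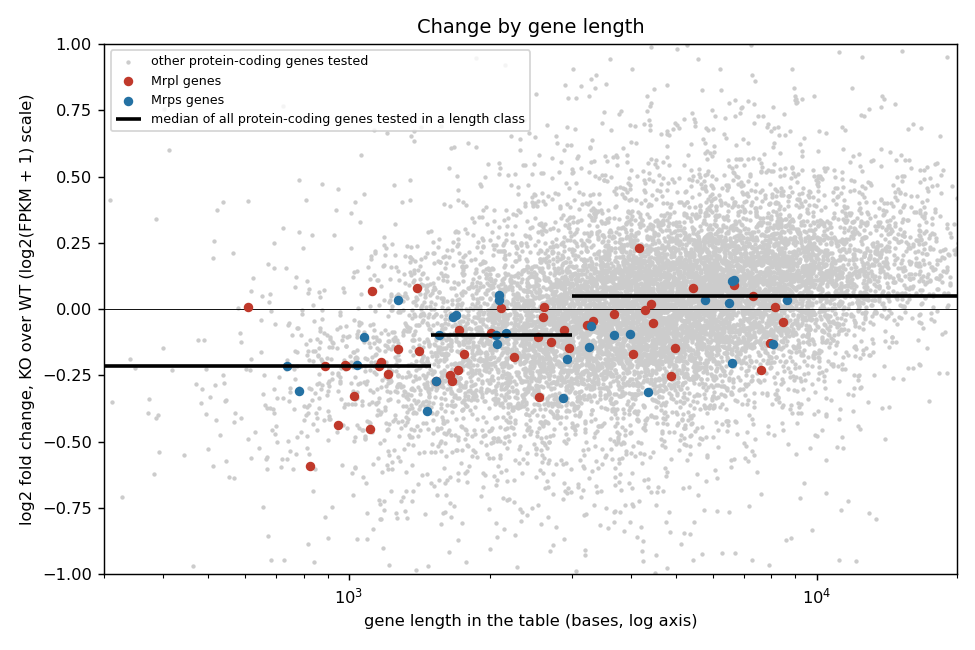
Log2 fold change of KO over WT against gene length on a log axis, for Mrpl genes (red), Mrps genes (blue) and the other protein-coding genes tested (grey; some lie outside the plotted range); black lines are medians of all protein-coding genes tested under 1500, from 1500 to 3000 and over 3000 bases. The short members lie around the black line of their class, at a median of -0.21 for both, and the long members somewhat below theirs.

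Before the trend with length was removed, the other genes of mitochondrial translation were closer to balance. The difference from the members was not tested. In lists of 58 tested factors, synthetases, assembly proteins and ribosomal proteins under other names, 34 were negative in log2 fold change and the median was -0.04. None passed over all genes in limma (0 of 58). At an unadjusted limma p under 0.05, 2 were lower and 1 higher, beside 7.25% and 7.05% of all genes. Their median length was 4154 bases, against 2255 for the members. With the trend with length removed, their median was -0.051, near the -0.057 of the members. Negative values then numbered 35 of 58, beside 53 of 77 members. The 2 lower ones were Aurkaip1, a ribosomal protein without an Mrp name, and Mrm2, a methyltransferase of the 16S rRNA. Aurkaip1 was at 24.5, 25.2 and 23.0 FPKM in KO and at 31.2, 34.6 and 27.6 FPKM in WT (log2 fold change -0.34, SE 0.11). Mrm2 was at 5.06, 4.96 and 4.25 FPKM in KO and at 7.71, 7.05 and 5.62 FPKM in WT (-0.43, SE 0.13).

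Of the 5 ribosomal proteins under other names, 4 were negative, with a median of -0.11. Beside Aurkaip1 the smallest p was that of Gadd45gip1, of the large subunit, at 8.28 ± 1.32 FPKM in KO and 9.38 ± 1.15 in WT. Initiation, elongation and release factors had 7 of 13 negative. Gfm1, the elongation factor that moves the ribosome along the mRNA, was at 11.4 ± 0.29 in KO and 9.85 ± 0.70 in WT, and the initiation factor Mtif2 at 6.04 ± 0.14 in KO and 5.21 ± 0.28 in WT, both without overlap. Of 20 assembly and rRNA modification genes 14 were negative, with Ngrn, an assembly factor, at 17.5 ± 1.34 in KO and 20.7 ± 2.09 in WT. Of 20 tRNA synthetase and related genes 9 were negative.

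The tRNA synthetase gene with the largest difference was Lars2, which charges the leucine tRNA of mitochondria. It was at 15.3, 12.1 and 17.98 FPKM in KO and at 3.12, 3.71 and 11.3 FPKM in WT. KO was higher in every library, but WT3 lay near KO2, at a log2 fold change of 1.36 (SE 0.40, adjusted p = 0.303 in limma). Gatb, of the complex that makes glutaminyl-tRNA, was at 3.86 ± 0.21 in KO and 4.57 ± 0.45 in WT.

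Among 12 tested genes of mitochondrial transcription and its nuclear regulators, 5 were negative. Ppargc1a, a coactivator that drives mitochondrial biogenesis in many tissues, was at 10.4, 9.94 and 9.22 FPKM in KO and at 5.10, 8.11 and 6.59 FPKM in WT. KO was above WT in all libraries, with WT1 the lowest (log2 fold change 0.53, SE 0.15, limma adjusted p = 0.302). Tefm, the elongation factor of mitochondrial transcription, was at 2.33, 1.84 and 1.89 FPKM in KO and at 3.68, 3.22 and 2.53 FPKM in WT (-0.45, SE 0.14, limma adjusted p = 0.303). Neither passed the threshold.

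Beside the other ribosome of the cell, the members' difference was smaller in median. The 76 tested cytosolic ribosomal protein genes had a median of -0.30, with 1 past the threshold and 73 negative. Of the 76, 48 were lower without overlap, beside 10.1% of all genes. With the trend with length removed their median was -0.21. The 13 protein genes of mitochondrial DNA, whose products the mitochondrial ribosome makes, were all negative on average, with a median of -0.33 and 0 without overlap. These genes are short, at a median of 784 bases, and with the trend with length removed their median was -0.19. No test of these differences between lists was made.

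Many members lie next to or over other genes, which bears on what a read there can be assigned to, since no source used here says whether counting used strand. Of 78 members, 41 overlapped another gene of the table and 17 overlapped a tested protein-coding gene. Mrpl53, at 0 reads in all 6 libraries, lies on chromosome 6 from 83109040 to 83109939 and is covered over all 900 bases by the gene Gm42688 on the same strand, which was at 0.29 FPKM in KO and 0.38 in WT. Mrpl46 and Mrps11 overlap each other head to head by 413 bases on opposite strands. Mrpl46 was at 11.9 ± 1.00 FPKM in KO and 13.3 ± 0.49 in WT, and Mrps11 at 6.66 ± 0.35 in KO and 7.17 ± 0.57 in WT.

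Overlaps touched some of the members named above. Mrps24 shares 2264 bases with Urgcp on the same strand, which was at 13.3 FPKM in KO and 13.2 in WT. Mrpl14 shares 584 bases with Tmem63b on the opposite strand, at 19.8 FPKM in KO and 19.5 in WT. Mrps26 shares 8 bases with an antisense gene at 1.31 FPKM in KO and 1.497 in WT, and Mrps18a shares 6876 bases with Rsph9 on the opposite strand, at 5.04 FPKM in KO and 7.16 in WT. The other members that overlap a tested gene were Mrpl18, Mrpl21, Mrpl24, Mrpl36, Mrpl44, Mrpl47, Mrpl48, Mrpl49, Mrps6, Mrps7, Mrps25 and Mrps34. Of the 5 processed pseudogenes with member names, Mrps36-ps1 had 3, 6 and 4 reads in KO and 2, 7 and 28 in WT. Mrpl48-ps had 11 to 37 reads in a library, and Mrpl23-ps1 had 4 to 11. No source used here says how reads shared with these copies were counted, and the values of Mrpl23, Mrpl48 and Mrps36 are uncertain to that extent.

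A shared feature that the choice of members did not use was a divergent neighbour. Of 77 tested members, 19 (24.7%) had a protein-coding gene on the opposite strand whose start lay within 1000 bases upstream of their own, against 9.74% of protein-coding genes tested. Of these neighbours 15 were tested, and 7 of the 15 were lower on average in KO (median log2 fold change 0.03). Mrpl54 starts 26 bases from Apba3, an adaptor of neuronal trafficking, which was at 5.10 ± 0.74 FPKM in KO and 6.33 ± 0.70 in WT. Mrpl49 starts 137 bases from Fau, which encodes a cytosolic ribosomal protein fused to a ubiquitin-like one, at 124 ± 4.37 FPKM in KO and 173 ± 14.6 in WT without overlap, while Mrpl49 was at 18.1 ± 2.16 in KO and 19.2 ± 1.56 in WT. Mrps12 starts 172 bases from Sars2, a mitochondrial tRNA synthetase, at 2.78 ± 0.48 FPKM in KO and 2.55 ± 0.18 in WT, and Mrpl43 starts 116 bases from Twnk, the mitochondrial DNA helicase, at 4.005 ± 0.64 in KO and 4.43 ± 0.39 in WT.

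Several lists of markers of other cells were lower in KO alongside the members, and others were not; no marker passed the threshold. The 10 microglial markers were all negative, and their sum was 137 to 172 FPKM in KO and 195 to 264 in WT. The 8 astrocyte markers were all negative, with sums of 194 to 245 in KO and 250 to 307 in WT. The 7 meningeal fibroblast markers were all negative, with sums of 12.3 to 30.8 in KO and 30.1 to 65.1 in WT, highest in WT1. Projection neuron markers, with 8 of 10 positive, summed to 796 to 1040 FPKM in KO and 829 to 916 in WT, and 8 myelin markers, all positive, to 576 to 806 in KO and 273 to 784 in WT. Interneuron markers, with 5 of 8 positive, summed to 487 to 551 in KO and 533 to 693 in WT, with overlap. Of these sums Sst made up 206 ± 15.4 FPKM in KO and 316 ± 103 in WT, where WT1 was at 433. Sst and Slc32a1 (38.2 ± 4.27 in KO, 49.5 ± 5.46 in WT) were lower without overlap. Gad1 was higher without overlap, at 55.5 ± 4.57 in KO and 48.5 ± 3.94 in WT. The 8 striatal neuron markers were all negative and all overlapped, with sums of 59.9 to 362 in KO and 116 to 860 in WT. Endothelial markers, with 5 of 6 negative, summed to 66.1 to 89.1 in KO and 64.3 to 119 in WT. Hypothalamic peptides summed to 1.52 to 3.43 in KO and 3.25 to 33.4 in WT. Trh was at 18.7, 21.6 and 1.28 FPKM in WT1 to WT3 and at 0.31 to 2.02 in KO. Avp was at 11.3, 2.16 and 0.62 FPKM in WT1 to WT3 and at 0.11 to 0.60 in KO. Hcrt and Pmch were at no more than 0.43 FPKM in any library. The part of these cells in the members' values was not tested.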

How the data were processed

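Members and lists were chosen with earlier results of these data known. The authors deposited 1 table of FPKM per Ensembl gene, with names, positions and lengths per the file headers. The submitters' processing notes name the builds GRCm38 and mm10. Aligner, counter and annotation version: not given in the sources used here. RNA came from a Qiagen column kit and libraries from a SMARTER mRNA kit, per the labels' protocols. FPKM times gene length gave whole multiples of 1 step for 100% of values (tolerance 0.01 reads), which gave the recovered reads. These served voom, depth, the mitochondrial DNA share, the correlation of reads with length, and the read counts of members and pseudogenes.

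The 13087 genes averaging 1 FPKM or more were compared with limma 3.58.1 in R 4.3.3 on log2(FPKM + 1), KO against WT, with empirical Bayes and a variance trend, two-sided, Benjamini-Hochberg threshold 0.05; fold changes on that scale understate those of low genes. For a single gene an exact permutation test of 3 against 3 cannot go below 0.1. The length trend was removed by loess (span 0.3) of each library's deviations on log2 length. The members named are those of smallest p without overlap (12), of largest change (4 each way), of highest and lowest level (4 each), the Mrps18 paralogs, Mrps30, Mrps36, members left out by the filter, those that overlap a tested gene or share a name with a pseudogene, and the 2 genes of smallest p in each list of translation genes.

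Deviations from the group means correlated between libraries of the same number at 0.17, 0.15 and 0.33. KO1 correlated more with WT2 (0.28). Neither these values nor the labels settle whether the numbers are pairs, so the replicate block is an alternative only. Every printed fold change, SE and p is from the unpaired fit unless the replicate block is named. The alternatives changed pseudocount, filter, scaling, length trend, variance trend, weights, replicate block, voom, and left out libraries; the scaling outside mitochondrial DNA was chosen after seeing the data.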

Additional observations from a re-analysis of the deposited data

How the results depend on the processing

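Over the alternatives 0 members passed the threshold in any fit. The genes called over all genes were 0 with no filter, with quantile normalization, with the length trend removed, with no variance trend, with the replicate block (also with the length trend removed) and with both libraries numbered 3 left out, against 1 as reported, and 0 to 9 without any one library (9 without WT3). Members lower at an unadjusted p under 0.05 were 5 with the common sum (4.43% of all genes), 7 with the length trend removed (5.91%, also 7 with the replicate block, 7.94%), 19 with array weights (11.7%), 7 with both libraries numbered 3 left out (7.98%) and 6 to 15 without any one library (3.81% to 9.65%), against 11 (7.25%). The higher ones were 2 with the length trend removed and 0 with the filter at 5 FPKM, both other scalings than the common sum (quantile and outside mitochondrial DNA), no variance trend, the replicate block (also with the length trend removed), voom, both libraries numbered 3 left out and any one library left out (0 to 0), against 1.

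The members' median log2 fold change was -0.057 with the common sum, -0.057 with the length trend removed (also with the replicate block), -0.15 with both libraries numbered 3 left out and -0.14 to -0.08 without any one library. Members with a negative value were 54 to 61 without any one library. Members without overlap were 6 lower and 4 higher with the common sum (6.07% and 14.6% of all genes), 2 higher with the common sum outside mitochondrial DNA (12.9%), 42 lower and 5 higher with both libraries numbered 3 left out (25.6% and 27.5%), and 19 to 31 lower and 1 to 4 higher without any one library (12.6% to 19.1% and 14.5% to 19.7%). The replicate block changed no other count of members.

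Signs turned for members near 0. With the length trend removed, with or without the replicate block, the log2 fold change was 0.034 for Mrps18c, -0.068 for Mrps35 and -0.035 for Mrpl33. It was -0.00033 for Mrpl33 with array weights and -0.010 for Mrps35 with both libraries numbered 3 left out. Without any one library it ran from -0.056 to 0.10 for Mrpl34, -0.068 to 0.15 for Mrps36, -0.020 to 0.094 for Mrps18b, -0.027 to 0.087 for Mrps35 and -0.035 to 0.091 for Mrpl33. The cause of these changes was not tested. Counting error bears most on the members of lowest depth, down to 106 reads in a library.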

Other observations

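The members on chromosome 11 were singled out after their values were seen. All 11 were negative in log2 fold change (median -0.22), and 7 of them were lower in KO without overlap. Of the 1057 tested genes on chromosome 11, 54.1% were negative and 12.9% were lower without overlap, with a median of -0.02. Among these members are Mrps24, Mrpl55, Mrpl12, Mrpl38 and Mrpl10, a protein that anchors the stalk, at 20.8 ± 0.93 FPKM in KO and 24.7 ± 2.85 in WT (SD, n = 3 each). The 6 tested members on chromosome 6 had 3 negative values. The shares given for chromosome 11 are not matched for length. With the trend with length removed, Mrps23 was at 0.03 and Mrpl45 at 0.04, while the other chromosome 11 members stayed negative.

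Mrps6, whose bacterial counterpart lies on the platform of the small subunit, was at 7.98, 7.56 and 8.19 FPKM in KO and at 15.3, 8.38 and 7.11 FPKM in WT. Its value in WT1 stood far from the other 5 libraries. The gene spans 29152 bases in common with Slc5a3, an inositol transporter gene on the same strand.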
